A study of Mus musculus with 12 samples.

Results

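The immunoglobulin variable segments are the genes named Ighv (heavy chain), Igkv (kappa light chain) and Iglv (lambda light chain). A segment was taken as a member when its normalised count reached 10 in at least 2 of the 12 libraries. Of 348 rows with such names among 55536 listed genes, 161 were members, 80 of them heavy, 78 kappa and 3 lambda. All 161 are annotated as functional segments, whereas 130 of the 348 rows are annotated as pseudogenes and none of those was a member. A further 57 functional segments did not reach the minimum, and 13 functional segments were at 0 in every library. At the edge of the rule, 10 members reached 10 in exactly 2 libraries and 16 rows reached it in exactly 1, while 65 segments reached it in all 12.

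Polyadenylated RNA was sequenced from the stromal vascular fraction (SVF), the mixed cells left when mature adipocytes are removed, of inguinal white fat. The 12 male mice, 1 library each, were 4 controls of 2 months, 4 controls of 12 months and 4 mice of 12 months with Pdgfrβ deleted (Pdgfrβ-KO). The labels give the controls as wild type and the others as PdgfrB Knock Out, and the study kept them at room temperature, on a mixed C57BL6/J-129SV background. The deletion was made by tamoxifen in Sma-CreERT2; Pdgfrβ fl/fl mice, in which Cre is expressed from the promoter of smooth muscle actin, so other cells of the SVF keep the gene. The study describes the 12-month controls as Sma-Control mice, which carry Sma-CreERT2 with a reporter. Whether the 2-month controls carried it, and whether the sequenced controls received tamoxifen, is not given in the sources used here. The same 12-month controls serve both comparisons, and whether the Pdgfrβ-KO libraries were prepared along with them is likewise not given, so preparation and genotype cannot be told apart.

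Each antibody-producing cell joins 1 variable segment to shorter diversity or joining segments, in its heavy chain locus and in a light chain locus, and the joined gene is transcribed with a constant gene. A transcript that carries a given variable segment therefore comes from cells that chose that segment. Naive B cells each carry a different joined gene and transcribe it modestly, while plasma cells, which secrete antibody, transcribe theirs at a very high level. Cells descended from 1 parent cell share the same segment. The variable part ends shortly after a conserved cysteine codon, where the third hypervariable loop begins.

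The ends of leading segments that recur below, 3 heavy, 3 kappa and 1 lambda, are shown to let the heavy and light ends be compared. They come from the GENCODE vM21 transcripts (GRCm38), and are written 5′ to 3′ in the direction of the transcript, with the conserved cysteine codon in capitals. The 3 heavy segments lie on the minus strand of chromosome 12, at chr12:114788372-114788437 (Ighv1-26), chr12:114288152-114288219 (Ighv3-6) and chr12:114140692-114140757 (Ighv9-3). Of the light segments, Igkv1-110 (chr6:68271185-68271267) and Igkv1-117 (chr6:68121745-68121827) lie on the plus strand and Igkv10-96 (chr6:68631963-68632045) on the minus strand of chromosome 6, and Iglv1 (chr16:19085017-19085100) on the minus strand of chromosome 16. The light segments run 23 or 24 bases past the cysteine codon and so encode most of the third loop, while the heavy segments run 6 or 8 bases past it.
Ighv1-26: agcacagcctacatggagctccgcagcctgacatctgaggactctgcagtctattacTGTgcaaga
Ighv3-6: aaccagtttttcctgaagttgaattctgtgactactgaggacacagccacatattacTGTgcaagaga
Ighv9-3: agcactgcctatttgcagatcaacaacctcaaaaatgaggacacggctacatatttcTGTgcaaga
Igkv1-110: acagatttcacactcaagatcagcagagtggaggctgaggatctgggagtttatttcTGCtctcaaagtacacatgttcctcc
Igkv1-117: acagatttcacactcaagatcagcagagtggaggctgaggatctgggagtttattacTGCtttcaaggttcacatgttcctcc
Igkv10-96: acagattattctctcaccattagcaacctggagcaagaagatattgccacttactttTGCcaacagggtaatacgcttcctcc
Iglv1: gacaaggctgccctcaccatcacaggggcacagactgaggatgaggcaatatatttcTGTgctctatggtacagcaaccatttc

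Deposited totals ran from 19616978 to 21872836 normalised counts per library. Pdgfrb was at 1707 to 2145 in the Pdgfrβ-KO libraries, below all 12-month controls at 2399 to 4380, with a log2 difference of -0.77 ± 0.166 (SE; limma adjusted p = 0.0160). The stromal genes Col1a1, Dcn and Pdgfra and the endothelial gene Pecam1 were at 2388 or more in every library, and Adipoq of mature adipocytes was at 121 to 485. The SVF also held lymphoid RNA: 15 B cell genes summed to 23309 to 38340 in 2-month controls, 28276 to 40505 in 12-month controls and 32055 to 57584 in Pdgfrβ-KO, and 10 T cell genes summed to 12033 to 23021 over the 8 control libraries. Inguinal fat holds a lymph node. Of 10 lymph node stromal genes, 9 were listed and Ccl21a was at 0 in all 12 libraries. The 9 summed to 3809 to 4097, 3789 to 4537 and 4152 to 4617 in the 3 groups, mostly through Cr1l and Ltbr. Of 6 tested in each comparison, 2 were lower with age and 2 higher in Pdgfrβ-KO. Glycam1 and Madcam1, genes of lymphoid vessels, were lower at 12 than at 2 months (-1.65 and -2.04 on the log2 scale, adjusted p = 0.000955 and 0.000678) and higher in Pdgfrβ-KO than in 12-month controls (2.22 and 1.42, adjusted p = 0.00171 and 0.0280). Cxcl13, a chemokine of B cell follicles, was at 66 to 335 at 2 months and 392 to 617 in 12-month controls (1.31, adjusted p = 0.0743) and at 465 to 1057 in Pdgfrβ-KO. The part of lymph node tissue in the results was not tested.

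Variable segment transcripts were several times more abundant at 12 months. Sums, shares, breadth and concentration were taken over all 348 rows, members or not, and members held 95.0 to 98.8% of the heavy and 97.1 to 99.3% of the kappa sum. The heavy segments summed to 954, 1290, 757 and 997 in the 4 libraries of 2-month controls. They summed to 3197, 3048, 5835 and 4479 in the 12-month controls. In the Pdgfrβ-KO libraries they summed to 4238, 1834, 5076 and 7798. Every 12-month library was thus above every 2-month library, and the 12-month groups overlapped, with Pdgfrβ-KO replicate 2 the lowest of them. The kappa segments summed to 1905, 2758, 1560 and 2035 at 2 months. They summed to 4662, 4170, 8588 and 7091 in 12-month controls and to 6100, 3132, 6968 and 12045 in Pdgfrβ-KO. Again no 2-month library reached a 12-month one. The mean sum of 12-month controls was 4.14 times that of 2-month controls for heavy and 2.97 times for kappa segments. These are sums over the RNA of a mixed cell fraction, in which more cells of a type and more RNA per cell cannot be told apart.

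**Figure D1:**
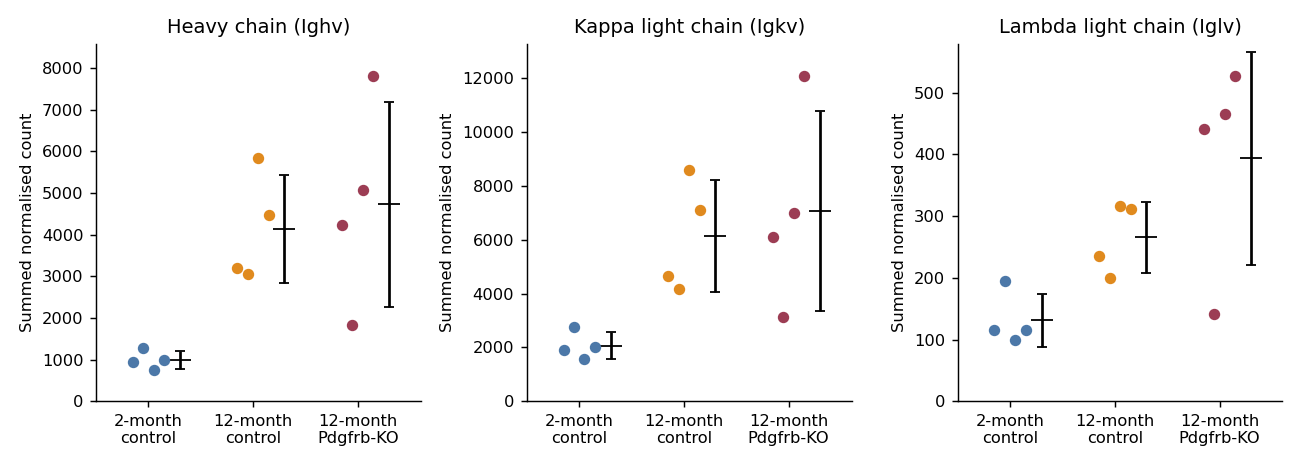
Summed normalised count of heavy, kappa and lambda variable segments, 1 point per library, with the mean and SD of each group of 4 beside the points. Heavy sums were 757 to 1290 at 2 months and 3048 to 5835 in 12-month controls, without overlap, while the 12-month groups overlapped.

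The rise with age was spread over most heavy segments. Of 56 heavy segments with enough signal to test between the control groups, 46 were higher at 12 months and none was lower by limma, against 11.3% of all 16399 genes tested that were higher and 11.4% that were lower. At an unadjusted p under 0.05, 52 heavy segments differed, all of them higher. The median log2 difference of the tested heavy segments was 1.90, against -0.01 over all genes. Of the 56, 6 reached 10 in no 2-month library, and so were tested through their 12-month values alone. Among the 22 that reached 10 in all 4 of the 2-month libraries, 20 were higher and the median was 2.00. The remaining heavy members were too low for the test.

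Ighv3-6 had the smallest p. It was at 23, 38, 29 and 34 in 2-month controls and at 170, 124, 263 and 201 in 12-month controls, a log2 difference of 2.54 ± 0.24 (SE, adjusted p = 3.96e-05). Ighv1-76 was at 8, 9, 4 and 9 against 63, 44, 159 and 76, a log2 difference of 3.24 ± 0.384 (adjusted p = 0.00019). It was among the 6 segments that reached 10 in no 2-month library, and so was tested through its 12-month values alone. The 2 age groups did not overlap for either segment. Ighv1-85 rose by the most, from 5 to 11 in the 2-month libraries to 27 to 131, a log2 difference of 3.26 ± 0.444 (adjusted p = 0.000456). Ighv1-81 (2.21), Ighv1-55 (2.06), Ighv1-15 (2.65), Ighv1-80 (2.03) and Ighv1-64 (2.14) also rose on the log2 scale, each without overlap between the age groups. Ighv1-26, the heavy segment with the highest mean over 12 libraries, was at 74, 49, 29 and 84 at 2 months and at 135, 188, 314 and 326 at 12 months, a log2 difference of 2.03 ± 0.344 (adjusted p = 0.00175). Of the abundant segments that did not pass, Ighv1-7 had a log2 difference of 2.57 ± 0.91 (adjusted p = 0.0721) and Ighv5-16 one of 1.22 ± 0.437 (adjusted p = 0.0636). Ighv14-4 had one of 0.80 ± 0.274 (adjusted p = 0.0546). Ighv1-47 was the single heavy segment with a value below 0, at -0.10.

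Most light segments rose as well. Of 64 tested, 43 were higher at 12 months and none was lower, with 53 at an unadjusted p under 0.05, all higher, and a median log2 difference of 1.37. Among the 45 that reached 10 in all 2-month libraries, 34 were higher. Igkv10-96 led them, at 54, 97, 47 and 54 in 2-month controls and 218, 303, 514 and 484 in 12-month controls, a log2 difference of 2.55 ± 0.285 (adjusted p = 0.000133). Igkv4-57-1 rose by 3.09 ± 0.369 on that scale (adjusted p = 0.000203), from 7 to 21 in 2-month libraries to 83 to 216. Igkv1-110, Igkv1-135, Igkv16-104, Igkv8-30, Igkv15-103 and Igkv3-5 rose by 1.39 to 2.35, without overlap of the control groups. Several of the abundant light segments at 2 months did not pass. Igkv17-121 was at 41 to 89 against 74 to 249 (0.96 ± 0.365, adjusted p = 0.0779), Igkv17-127 at 59 to 85 against 74 to 195 (0.62), Igkv9-120 at 37 to 66 against 64 to 102 (0.62) and Igkv19-93 at 36 to 93 against 44 to 94 (0.30). Igkv3-1 was the single light segment with a value below 0 (-0.06).

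**Figure D2:**
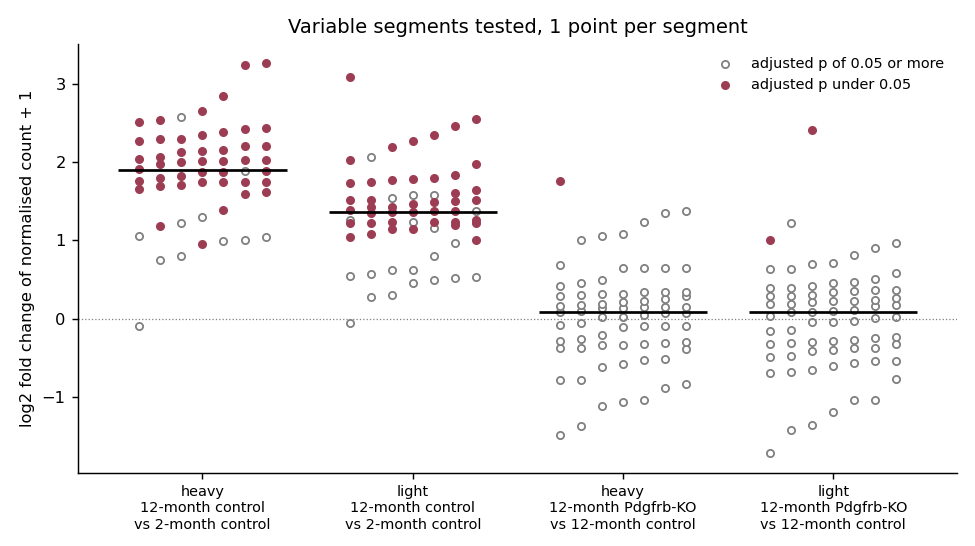
log2 difference of every tested segment between the groups named under the axis, 1 point per segment, filled where the limma adjusted p was under 0.05, with the median as a line. The age medians were 1.90 (heavy) and 1.37 (light) and the Pdgfrβ-KO medians 0.09 and 0.08.

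The lambda segments summed to 115, 195, 99 and 115 in 2-month controls, 236, 200, 317 and 311 in 12-month controls and 441, 141, 465 and 526 in Pdgfrβ-KO. The control groups did not overlap, and the 12-month groups did. Of the 3 lambda segments, 1 passed the test with age. Iglv1 was at 64, 110, 44 and 61 in 2-month controls and at 155, 140, 192 and 211 in 12-month controls, a log2 difference of 1.37 ± 0.248 (adjusted p = 0.00256). Iglv2 and Iglv3 had values of 0.57 ± 0.293 (adjusted p = 0.177) and 0.52 ± 0.266 (adjusted p = 0.179). Iglv1 held 52.4% ± 5.49 (SD, n = 4) of the lambda sum at 2 months, 66.0% ± 4.04 in 12-month controls and 76.4% ± 7.17 in Pdgfrβ-KO, the first of these ranges lying below both others. Lambda segments made up 5.35 to 6.60% of the light variable sum at 2 months and 3.56 to 4.82% in 12-month controls, again without overlap.

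More segments reached 10 in 12-month than in 2-month controls, but fewer were expected at an equal sum. The number of heavy segments at 10 or more was 31, 49, 32 and 35 in 2-month controls, 69, 58, 71 and 68 in 12-month controls and 69, 48, 74 and 75 in Pdgfrβ-KO. The number of kappa segments was 49, 58, 47 and 53, then 62, 67, 69 and 75, then 67, 57, 71 and 73. Both were higher in 12-month than in 2-month controls, without overlap, while Pdgfrβ-KO overlapped each control group. A higher sum lifts more segments over a fixed minimum, so the expected number of different segments was also computed at 1 common sum, that of the lowest library. At a sum of 757, the heavy segments numbered 91.2 to 94.3 in 2-month controls, 79.6 to 85.6 in 12-month controls and 77.3 to 84.9 in Pdgfrβ-KO. At a sum of 1560, kappa segments numbered 92.8 to 98.4, 83.2 to 88.1 and 81.4 to 82.6. At an equal sum, 12-month controls thus had fewer segments than 2-month controls in both chains, without overlap. Pdgfrβ-KO was below all 12-month controls for kappa and overlapped them for heavy segments. This count takes any value above 0, where the first took 10 or more. With a minimum of 1 and no common sum, heavy segments numbered 92 to 99 and 101 to 104 in the control groups, and kappa segments 93 to 108 and 97 to 102, with overlap. The expected numbers treat normalised counts as molecules and carry no test.

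**Figure D3:**
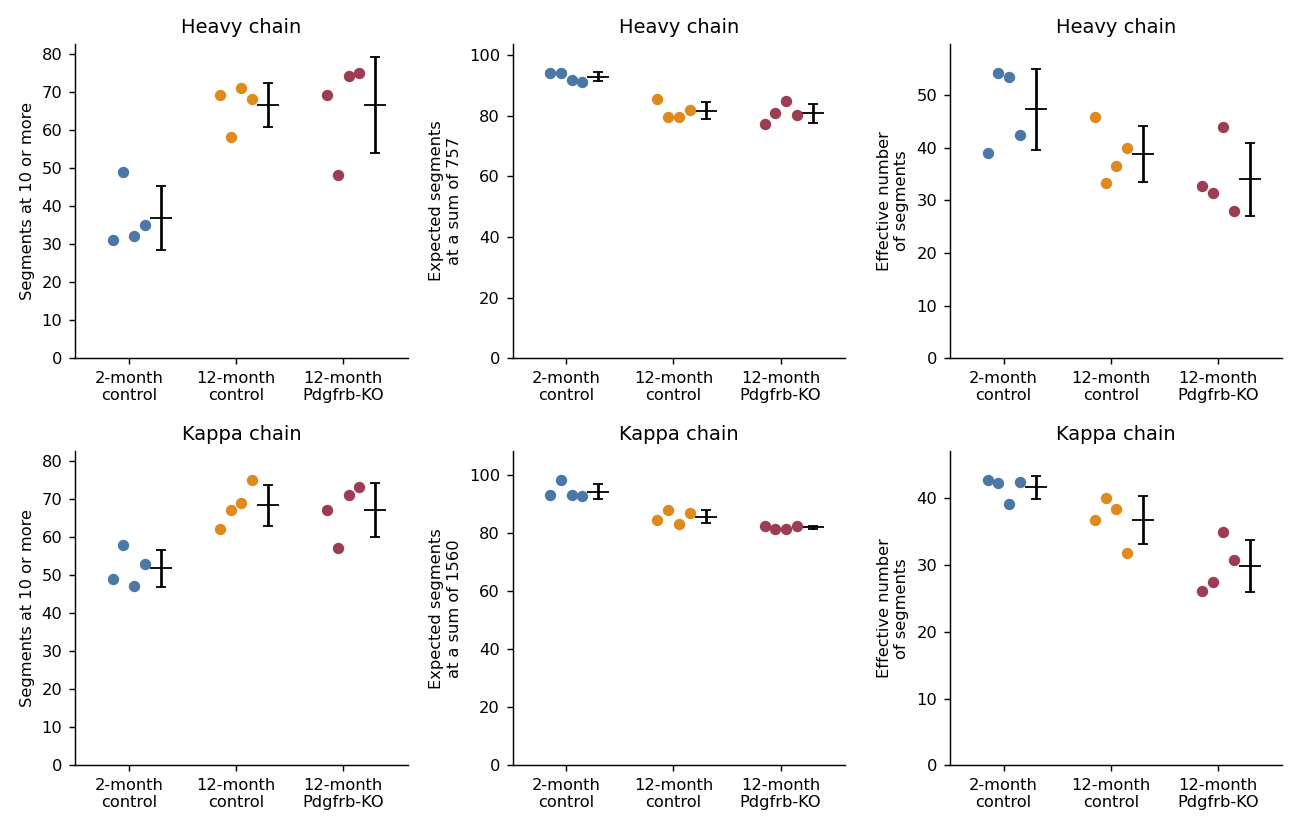
Number of heavy and kappa segments at 10 or more, expected number at a common sum, and effective number of segments, 1 point per library, with the mean and SD beside the points. The first measure was higher and the second lower at 12 months, with no overlap between 2-month and 12-month controls.

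The first heavy or kappa segment held at most 13.2% of its chain in any library. The first heavy segment held 3.83 to 8.43% of the heavy sum at 2 months, 5.32 to 8.50% in 12-month controls and 5.73 to 13.2% in Pdgfrβ-KO. The first 5 held 21.4% ± 4.21, 25.1% ± 3.63 and 27.4% ± 3.90 (SD, n = 4), and 16 to 20, 13 to 17 and 12 to 16 segments were needed to reach 50% of the sum. The effective number of heavy segments, the number of equally abundant segments that would give the same concentration (inverse Simpson index), was 47.3 ± 7.67, 38.9 ± 5.35 and 34.0 ± 6.97, and all 3 ranges overlapped. For kappa it was 41.7 ± 1.70, 36.8 ± 3.59 and 29.9 ± 3.93, and the first 5 kappa segments held 22.7% ± 1.64, 26.4% ± 2.80 and 31.4% ± 3.04. The 2-month and Pdgfrβ-KO libraries did not overlap in either kappa measure, while each overlapped the 12-month controls. Since 2 groups that differ in both age and genotype are set side by side there, age and genotype cannot be told apart in that contrast.

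**Figure D4:**
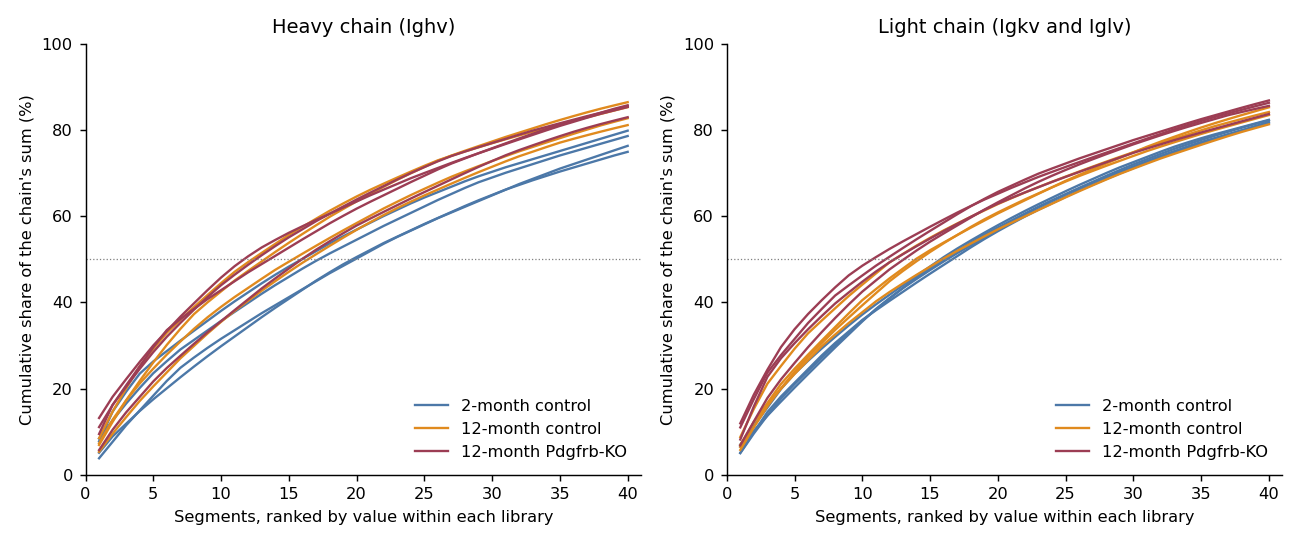
Cumulative share of the chain's sum against the rank of the segment in its own library, 1 line per library, with the dotted line at 50%. Heavy libraries crossed the line after 12 to 20 segments, with the 2-month lines among the last to cross.

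The same few segments led most libraries. Ighv1-26 was among the first 10 heavy segments in all 12 libraries, and Ighv1-81, Ighv3-6 and Ighv1-82 in 11 each. Igkv1-110, Igkv1-117 and Igkv6-15 were among the first 10 light segments in all 12. Beside these, 12 heavy segments and 12 light segments stood among the first 10 of 1 library alone. Igkv1-110 was at 103, 89, 71 and 90 in 2-month controls, 280, 232, 342 and 648 in 12-month controls and 781, 215, 508 and 966 in Pdgfrβ-KO. Igkv1-117 was at 97, 192, 116 and 108, then 318, 160, 465 and 433, then 436, 201, 405 and 862. Igkv1-110 was first of the kappa segments in 4 libraries, and Igkv1-117 also in 4. The values are not divided by length. The transcripts of heavy members are 347 to 480 bases and of light members 338 to 404 bases long, and per base the first segment was unchanged in 11 of 12 libraries for each chain.

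**Figure D5:**
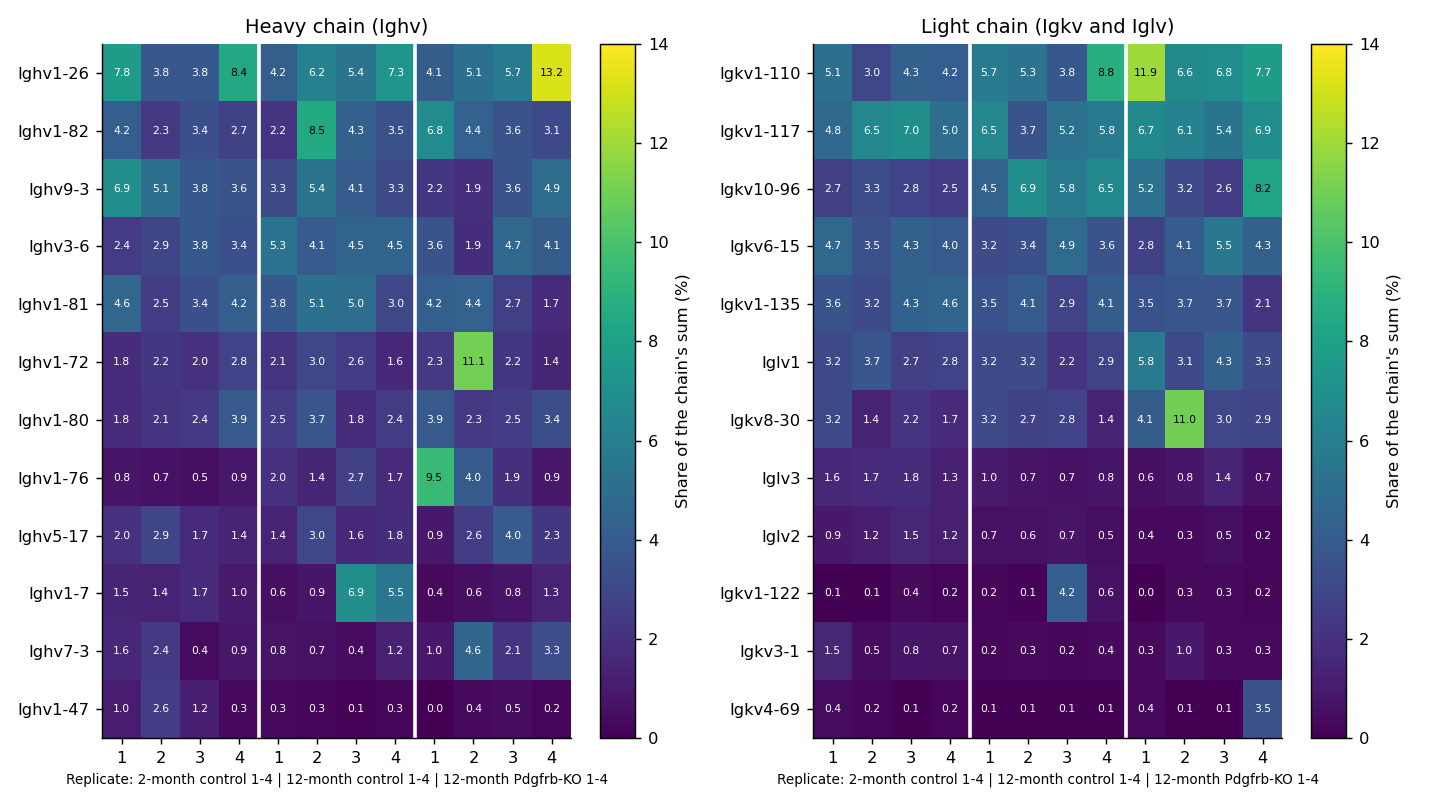
Share of the chain's sum, in percent and printed in each cell, for the leading segments (rows) in each library (columns, 4 per group). Single bright cells mark Ighv1-72 (11.1%) in Pdgfrβ-KO replicate 2 and Ighv1-76 (9.46%) in Pdgfrβ-KO replicate 1.

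Some segments held a much larger share in 1 or 2 of the 12-month libraries than in most others, and not all of them were rare elsewhere. Among segments with a value of at least 50, Igkv4-69 in Pdgfrβ-KO replicate 4 (438, against 1 to 24 in the other 11 libraries) held 33.2 times its median share over the 12 libraries. Igkv1-122 in 12-month control replicate 3 (371) held 19.3 times its median share, and these 2 were the only ones above 10 times, a limit set after the values were seen. Ighv1-7 was at 403 and 247 in 12-month control replicates 3 and 4 and at 10 to 103 in the other 10. Ighv1-76 stood at 401 in Pdgfrβ-KO replicate 1, at 73 to 95 in its 3 companions and at 159 in 12-month control replicate 3. Ighv1-72 and Igkv8-30 were both highest in share in Pdgfrβ-KO replicate 2, at 203 and 360. Neither was rare elsewhere, with Ighv1-72 at 67 to 149 in 12-month controls and Igkv8-30 at 369 in Pdgfrβ-KO replicate 4. Among segments at 50 or more, no 2-month library held one at 3 times its median share or more. Those libraries had few such segments, 0 to 2 heavy and 6 to 23 light, against 20 to 37 and 32 to 52 in 12-month controls. The minimum of 50 thus left little to find at 2 months. Lower values were not counted, such as Ighv1-47, at 33 in 2-month control replicate 2 and 7 to 12 in 12-month controls. The ends of the segments high in 1 or 2 libraries are shown for comparison with the recurrent ones, with the cysteine codon in capitals, on the minus strand at chr12:114538495-114538560 (Ighv1-7), chr12:115847881-115847946 (Ighv1-76) and chr6:69283794-69283874 (Igkv4-69), and on the plus strand at chr6:68017406-68017488 (Igkv1-122).
Ighv1-7: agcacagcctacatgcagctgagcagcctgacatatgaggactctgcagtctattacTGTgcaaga
Ighv1-76: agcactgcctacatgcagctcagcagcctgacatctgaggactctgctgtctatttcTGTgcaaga
Igkv1-122: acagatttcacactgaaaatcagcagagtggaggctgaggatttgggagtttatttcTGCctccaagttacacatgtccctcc
Igkv4-69: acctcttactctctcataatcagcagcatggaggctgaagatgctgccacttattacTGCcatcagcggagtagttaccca

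Libraries of 2-month controls resembled one another more in their light segments than 12-month libraries did. The share of the light sum held in common by 2 libraries, the sum over segments of the smaller of their shares, was 82.6 to 87.0% for the 6 pairs of 2-month controls. It was 73.1 to 80.0% for the 6 pairs of 12-month controls and 75.1 to 78.9% for the 6 pairs of Pdgfrβ-KO. For heavy segments the ranges were 74.3 to 77.6%, 72.0 to 76.8% and 62.2 to 74.0%. The light ranges at the 2 ages did not overlap, whereas the heavy ranges did. A pair shares each of its libraries with other pairs, so no test was made.

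By family, Ighv1, the largest heavy family, held 52.4% ± 3.23, 57.2% ± 1.98 and 57.2% ± 4.67 of the heavy sum in the 3 groups, with 47% of the functional heavy segments. Of 36 families, 8 did not overlap between the control groups (Ighv3, Ighv13, Ighv15, Igkv4, Igkv6, Igkv10, Igkv17 and Igkv19) and 1 did not overlap between 12-month controls and Pdgfrβ-KO. That was Ighv7, which includes Ighv7-3, at 0.583 to 1.47% and 1.60 to 5.07%. No test was made, and how many families would separate by chance was not computed, so 1 such family is not read as a result. Ighv15 had no member, and the 1 member of Ighv13 was at 2 to 14 in the controls, so both rest on low values. Among kappa families, Igkv4 held 9.62 to 14.5% of the kappa sum at 2 months and 15.3 to 16.4% in 12-month controls, and Igkv10 3.64 to 4.68% and 5.32 to 9.71%. Igkv17 went the other way, at 5.51 to 6.67% and 3.41 to 4.13%, as did Igkv6, which held 13.0 to 14.6% in 12-month controls. Igkv19, a family of 1 member, was at 2.15 to 3.37% and 1.04 to 1.33%.

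Deletion of Pdgfrβ was compared with control at 12 months. Of 71 heavy segments tested, 1 was higher and none lower, and of 73 light segments 2 were higher and none lower, against 4.96% of all 16344 genes tested that were higher and 4.46% that were lower. At an unadjusted p under 0.05, 3 heavy segments differed, 2 of them higher, and 7 light segments, 5 of them higher. The share of all genes at that unadjusted level is not given here, so these counts are not read as a result. The medians were 0.09 and 0.08 on the log2 scale. The share of segments called was below that of all genes.

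Igkv1-133 had the smallest p of the 3. It was at 2, 6, 4 and 3 in 2-month controls, 5, 5, 5 and 12 in 12-month controls and 65, 17, 38 and 48 in Pdgfrβ-KO, so the 12-month groups did not overlap, and the log2 difference was 2.41 ± 0.448 (adjusted p = 0.00775). Ighv7-3 was at 24, 20, 25 and 54 in 12-month controls and 41, 84, 107 and 258 in Pdgfrβ-KO (1.76 ± 0.492, adjusted p = 0.0471). Igkv8-30 was at 156, 120, 253 and 101 against 271, 360, 221 and 369 (1.01 ± 0.273, adjusted p = 0.0422). Both of these overlapped between the groups. Ighv7-3 did not pass without 12-month control replicate 1, 2 or 3 or Pdgfrβ-KO replicate 2, 3 or 4 (adjusted p = 0.0658 to 0.116). Igkv8-30 did not pass without 12-month control replicate 1, 2 or 4 or Pdgfrβ-KO replicate 1, 2 or 4 (adjusted p = 0.0740 to 0.103). Igkv1-133 passed with each library left out in turn. Without Pdgfrβ-KO replicate 2, the library lowest in variable segments, Iglv1 (1.09, adjusted p = 0.00574), Igkv9-120 (1.27, adjusted p = 0.0304) and Ighv14-4 (1.60, adjusted p = 0.0273) also passed, against 0.63, 0.90 and 1.08 with it. In the other direction, Ighv1-85 passed without 12-month control replicate 2 (-1.57, adjusted p = 0.0170) and Igkv4-57-1 without Pdgfrβ-KO replicate 4 (-1.54, adjusted p = 0.0367), against -1.12 and -1.20 with all libraries. The most abundant segments did not pass: Ighv1-26 differed by 0.23 ± 0.592, Igkv1-110 by 0.63 ± 0.434 and Igkv10-96 by -0.30 ± 0.565.

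Igkv1-133 lies close to Igkv1-135 in sequence, with 11 differing bases among the 313 of the variable exon. The stretch that holds them is shown on the plus strand for chr6:67725416-67725643 (Igkv1-133) and chr6:67610263-67610490 (Igkv1-135), with the differing bases in capitals, because reads that miss those bases could be assigned to either gene.
Igkv1-133: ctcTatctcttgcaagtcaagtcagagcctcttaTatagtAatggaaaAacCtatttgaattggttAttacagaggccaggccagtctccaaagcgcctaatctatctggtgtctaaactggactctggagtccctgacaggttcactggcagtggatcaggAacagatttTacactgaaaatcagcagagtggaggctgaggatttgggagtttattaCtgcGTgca
Igkv1-135: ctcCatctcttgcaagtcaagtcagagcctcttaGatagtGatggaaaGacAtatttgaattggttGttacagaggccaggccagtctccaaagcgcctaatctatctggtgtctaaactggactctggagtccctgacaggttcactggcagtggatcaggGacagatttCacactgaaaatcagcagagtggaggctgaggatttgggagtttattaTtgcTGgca

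Igkv1-135 was at 173, 178, 255 and 304 in 12-month controls and 232, 122, 274 and 269 in Pdgfrβ-KO, a log2 difference of -0.05 ± 0.273 (adjusted p = 0.931). Its SD was 63.3 and 70.7 in these groups, while the means of Igkv1-133 were 6.75 and 42. Whether reads were assigned to the wrong one of these genes was not tested. Among all 161 members the median identity to the nearest other functional segment over 280 bases was 95.4%, and 19 members had a relative at 98% or more. Ighv1-62-2 and Ighv1-71 are identical over the exon, so their separate values are uncertain. Ighv1-72, at 67 to 149 in 12-month controls, differs from Ighv1-62-3 by 3 bases, and the latter stayed at 0 to 2 in every library. How reads that fit several segments were treated is not given in the sources used here, and alleles of the 129 strain may differ from the C57BL/6 reference, which was not tested.

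Constant genes were read beside the variable segments. Igha, the constant gene of immunoglobulin A, was at 196 to 541 in 2-month controls, 16641 to 26356 in 12-month controls and 6979 to 29285 in Pdgfrβ-KO. Its share of the heavy constant sum was 2.81% ± 1.25, 53.1% ± 3.78 and 40.4% ± 9.50 (SD, n = 4). With age the log2 difference was 2.13 ± 0.194 for Igkc, which encodes the constant part of kappa chains (adjusted p = 3.21e-05), and 4.99 ± 0.348 for Jchain, which joins immunoglobulin A and M units (adjusted p = 3.26e-05). Of 15 B cell genes tested with age, 2 were higher (Cr2 and Vpreb3), with a median of 0.16. Jchain was 1 of 12 plasma cell genes tested with age, of which 4 were higher and 2 lower, with a median of 0.17. The others higher were Tnfrsf17, Derl3 and Txndc5, and those lower were Irf4 (-0.47) and Prdm1 (-0.41). The part of B cell and plasma cell numbers in the segment values was not tested. Light variable segments summed to 2.12 to 2.29 times the heavy ones at 2 months and 1.43 to 1.65 times in 12-month controls. Per 100 of Igkc, kappa segments summed to 64.2 to 97.1 at 2 months and 42.4 to 80.3 in 12-month controls. Per 100 of the heavy constant sum, heavy segments summed to 7.13 to 7.99 and 8.31 to 12.9. Variable and constant values thus did not change alike in the heavy and kappa chains, and the reason was not tested. Ighg1 was the constant gene called between the 12-month groups, at 35 to 239 in controls and 429 to 1517 in Pdgfrβ-KO (3.21 ± 0.575, adjusted p = 0.00648).

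T cell receptor variable segments, the other rearranging receptor genes, summed to 1931 to 2260 in 2-month controls, 945 to 1902 in 12-month controls and 1013 to 1596 in Pdgfrβ-KO. Of 46 tested with age, 4 were higher and 9 lower, with a median log2 difference of -0.66, and of 34 tested in Pdgfrβ-KO none was called, with 4 at an unadjusted p under 0.05 and a median of -0.37.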

How the data were processed

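The authors deposited 2 tables of normalised counts per gene, here named scores, since they are counts divided by DESeq2 size factors and rounded. Per the submitters' processing notes, reads were trimmed with Trim Galore 0.6.0, aligned with STAR 2.7.0e to GRCm38 and normalised with DESeq2 1.26.0. The counting tool is not given in the sources used here. The 12-month control columns are equal in both tables, so the tables share 1 scale. Raw depth is not known.

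Genes with at least 10 in at least 4 of a comparison's 8 libraries were tested with limma 3.58.1 (R 4.3.3) on log2(value + 1), with trend and robust, two-sided, Benjamini-Hochberg adjusted over all genes at 0.05. The fit was tested on simulated data. Fold changes on this scale understate changes of low genes. The labels call the libraries biological replicates. Sums, breadth and concentration were described without a test. Sequences and positions came from GENCODE vM21, and identity from edlib 1.3.9.post1 over the first 280 bases of the variable exon.

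Members, gene lists and tests were chosen with earlier results of these data known. Named segments were the first 3 of each library per chain, up to 8 called and 4 uncalled segments per comparison and chain, the 6 highest means per chain and any in a count of 5 or fewer.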

Additional observations from a re-analysis of the deposited data

Results flagged for a closer look

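Chance alone marks about 1 in 20 groups of 4 libraries. Some segments were named for a high value in a single library, so that rate does not hold for them. In 168 groups, 17 had 1 library far from the other 3. Among segments, these were Igkv4-69 at 438 and Ighv1-76 at 401 in Pdgfrβ-KO replicates 4 and 1, Ighv1-72 at 203 in Pdgfrβ-KO replicate 2, Igkv1-122 at 371 and Igkv17-121 at 249 in 12-month control replicate 3, and Ighv7-3 at 54 and Igkv1-133 at 12 in 12-month control replicate 4. Pdgfrβ-KO replicate 2 was the low one for Ighv1-85 and Igkv15-103, both at 22. At 2 months, replicate 2 was high for Ighv1-85 (11), Igkv10-96 (97), the lambda sum (195) and the expected kappa segments at a common sum (98.4), and replicate 1 for Igkv3-1 (30) and Igkv8-30 (64). Replicate 3 of that group was low in kappa effective number (39.1) and in the segments that hold 50% of the kappa sum (15).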

How the results depend on the processing

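With age, the heavy segments called higher numbered 36 to 46 and the light ones 29 to 43 when 1 library was left out, and none was lower in any alternative. Restricting to segments at 10 or more in all 2-month libraries, chosen after seeing the data, left 20 heavy calls because fewer were tested. Without trend and robust moderation the Pdgfrβ-KO calls were 0 heavy and 1 light, and with no filter 0 heavy. With 1 library left out they ranged from 0 to 1 heavy higher, 0 to 1 heavy lower, 1 to 3 light higher and 0 to 2 light lower. The cause was not tested. The samples were treated as unpaired. Correlations of deviations between libraries of the same replicate number were -0.216 to 0.157 with age and -0.018 to 0.375 in the Pdgfrβ-KO comparison. These are too few to tell whether such libraries were paired. With a replicate block in the fit, 44 heavy and 38 light segments were higher with age. In Pdgfrβ-KO the block gave 2 heavy higher, 2 heavy lower, 3 light higher and 1 light lower. The age difference in heavy breadth was 29.8 segments, 16 at a minimum of 5 and 38.5 at 20, and in light breadth 16.5, with 11.5 at 5 and 22 at 20. At a minimum of 1, chosen after seeing the data, it was 6.50 for heavy and 1.25 for light, where the light groups overlapped. Of 24 named segments called with age, 23 kept their call in every alternative, the exception being Igkv1-117 with no filter. With the block, 1200 genes of all kinds were higher and 1180 lower in Pdgfrβ-KO, against 810 and 729. Raw depth is not known, so counting error was not separated from the spread between libraries.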
